A study of Homo sapiens with 4 samples.

Results

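The 7 genes described here encode MET, the receptor tyrosine kinase of hepatocyte growth factor, its ligand HGF, the TAM receptors TYRO3, AXL and MERTK, and the TAM ligands GAS6 and PROS1. They were chosen by name, with earlier results of these data known, and are 7 of 19775 genes named on the arrays. All 19 of their probe sets annotated to 1 gene were read. The cells were U87TR-Da, made from the established human glioblastoma line U87MG so that doxycycline turns on DACH1, a nuclear transcriptional repressor of the Dachshund family. The labels do not say whether the derivative is a clone. There were 4 arrays, 1 for each condition. DACH1-silenced and DACH1-induced cells were each grown in 1 of 2 media: DMEM containing 10% fetal bovine serum, and Neurobasal without serum but with EGF, basic FGF, B-27 and N-2. The labels give doxycycline at 1 µg/mL for 72 h for every sample, silenced cells too, and so leave out how silencing was obtained.

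MET sits in the plasma membrane and, once HGF binds, autophosphorylates and recruits GAB1, GRB2 and PI3-kinase, which drive scattering, survival and division. HGF is secreted as an inactive precursor that serine proteases cut. TYRO3, AXL and MERTK respond to GAS6, which binds all of them, and to PROS1, the anticoagulant protein S, which binds TYRO3 and MERTK. Both ligands need vitamin K-dependent carboxylation, which lets them bridge the receptor to phosphatidylserine on dying cells. MET and AXL are widely expressed in invasive glioblastoma cells, and U87MG has served as a model of autocrine HGF signalling.

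DACH1 itself read 126.0 silenced and 4431 induced labelled serum (35.2-fold higher), then 32.5 and 875.1 labelled serum-free (26.9-fold higher). The median signal of an array lay between 15.7 and 19.3. Of 9 markers of astrocytic glioblastoma, GFAP, S100B, FABP7 and SOX2 stayed under 17.2, the median of all signals, on every array, while VIM and CD44 read at least 4214. The other 3 varied with the arrays: in the sequence silenced and induced labelled serum, silenced and induced labelled serum-free, SLC1A3 read 135.0, 12.8, 158.0 and 104.1, OLIG2 58.4, 79.9, 12.2 and 12.3 (adjusted p 0.0170 between media in limma) and NES 19.6, 35.8, 26.7 and 21.9. The part of these markers in the members' differences was not tested. Of 10 markers of other cells, 7 stayed under it too. The summed signal of these 10 went from 75.5 and 96.8 labelled serum to 164.8 and 119.7 labelled serum-free. PTPRC, CD14, AIF1, CD163, CDH5, VWF and CDH1 read at most 11.7 on every array. In the same sequence CSF1R read 19.3, 21.9, 72.2 and 47.9, PECAM1 30.4, 31.4, 35.7 and 29.2, and EPCAM 8.1, 10.6, 24.8 and 10.4. A list of genes that serum is known to raise went the other way from the medium labels. Of 11 measured, 9 rose in the arrays labelled serum-free and 0 fell by limma (adjusted p at or under 0.05). Their median log2 difference was 3.08. Of all genes, 15.4% rose and 12.7% fell. FOS, which is not on this list, fell, from 84.6 and 109.5 labelled serum to 3.3 and 6.5 labelled serum-free. Of 7 sterol synthesis genes, which are known to rise when serum lipoprotein is withdrawn, 1 rose and 0 fell there, with a median of -0.41. The media are therefore called "labelled serum" and "labelled serum-free".

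Signals are MAS5 values on a linear scale. With a single array per condition, differences within a pair carry no test and were read at 2-fold. Each rests on a single array on either side, from cultures not stated to be repeated, so its precision could not be measured. In such bulk RNA, fewer cells of a kind and less RNA per cell cannot be told apart.

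MET was well above background. Its brightest probe set (203510_at) read 853.5 with DACH1 silenced and 1413 with it induced labelled serum, and 2264 and 2156 labelled serum-free. The silenced array labelled serum was thus the lowest, the induced one lay between, and those labelled serum-free were the highest. The other 3 probe sets gave the same order of the 4 arrays. Probe set 211599_x_at read 369.7, 565.5, 1109 and 894.7 in the sequence silenced and induced labelled serum, silenced and induced labelled serum-free. In that sequence 213807_x_at read 255.4, 288.5, 842.9 and 729.7. The dimmest, 213816_s_at, read 121.9, 154.4, 345.3 and 302.6.

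AXL showed the widest spread over the 4 arrays of the measured members. Its brightest probe set (202686_s_at) read 435.2 and 996.2 on the silenced and induced arrays labelled serum, then 1311 and 1191 labelled serum-free. Its other probe set (202685_s_at) read 62.7 and 137.1, then 300.9 and 276.5. On both, the silenced array labelled serum stood below the other 3 arrays, and the arrays labelled serum-free lay close together.

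TYRO3, the TAM receptor best known from neural tissue, had weaker signals. Probe set 211432_s_at read 61.3 and 96.3 labelled serum and 125.7 and 124.6 labelled serum-free, silenced before induced. Probe set 211431_s_at read 29.0 and 35.0, then 52.0 and 43.2. The order of the arrays was that of MET and AXL, though 125.7 and 124.6 are nearly equal. MERTK, the TAM receptor of phagocytes, was near background: its 3 probe sets read between 0.6 and 13.5, with 9 of 12 values at or under the floor of 10.9 (the 40th percentile of all signals). No MERTK probe set reached the median on any array, so no fold is given.

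Among the ligands, HGF stayed under the median of all signals on all 5 of its probe sets. Their 20 values lay between 0.6 and 17.1, of which 14 were at or under the floor. The highest, 17.1, came from 209961_s_at on the silenced array labelled serum-free, where the 4 arrays read 11.7, 15.9, 17.1 and 8.5 in the sequence used above. Detection calls were not used, so such values bound the level only loosely. GAS6 was measurable: 1598_g_at read 72.2 and 92.2 labelled serum and 142.3 and 130.4 labelled serum-free, and 202177_at read 19.4 and 22.8, then 56.1 and 41.7. PROS1 had 1 probe set (207808_s_at), which read 452.7 silenced and 393.8 induced labelled serum, then 471.4 and 662.1. Its order differed from that of the other 4 measured genes, with the induced array labelled serum-free highest and the induced array labelled serum lowest.

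**Figure D1:**
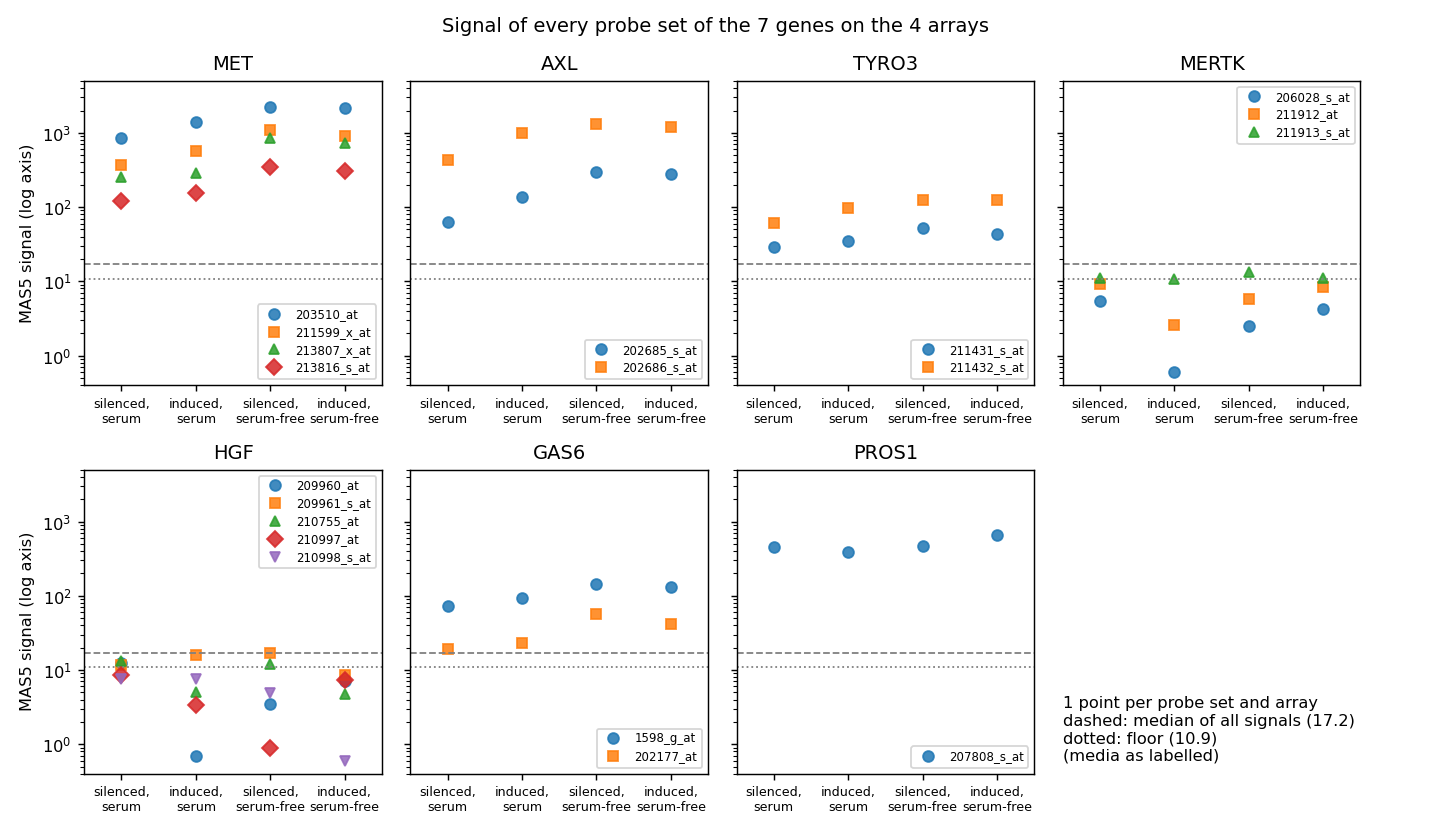
MAS5 signal (log axis) of each of the 19 probe sets of the 7 genes on the 4 arrays, 1 point per probe set and array, with the median of all signals (17.2, dashed) and the floor (10.9, dotted). MET, AXL, TYRO3 and GAS6 were lowest on the silenced array labelled serum, while every HGF and MERTK value lay under the dashed line.

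Thus 11 probe sets of 5 genes could be compared, and all of them were at or above the median signal on all 4 arrays. The 10 probe sets of MET, AXL, TYRO3 and GAS6 all gave the order silenced labelled serum, induced labelled serum, induced labelled serum-free, silenced labelled serum-free, from low to high. PROS1 did not. The last step of the order was only 1.009-fold for 211432_s_at of TYRO3 and 1.05-fold for 203510_at of MET. Of 23629 probe sets in the limma fit, 10.7% had this order, and of 12103 genes 10.8%. The order was read from the members first and then counted over all genes, so these shares are a description and no test. Probe sets of a gene read the same transcripts, so the 10 are not 10 separate observations. The order was shared by 6 of 9 housekeeping genes, among them ACTB (6428, 6537, 13055 and 10935 in the sequence used above). With quantile normalization of the arrays all 10 probe sets kept the order, and 3 of the 9 housekeeping genes had it. The share of all probe sets with this order was not counted after that normalization. The part of array scaling in this order was not tested.

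**Figure D2:**
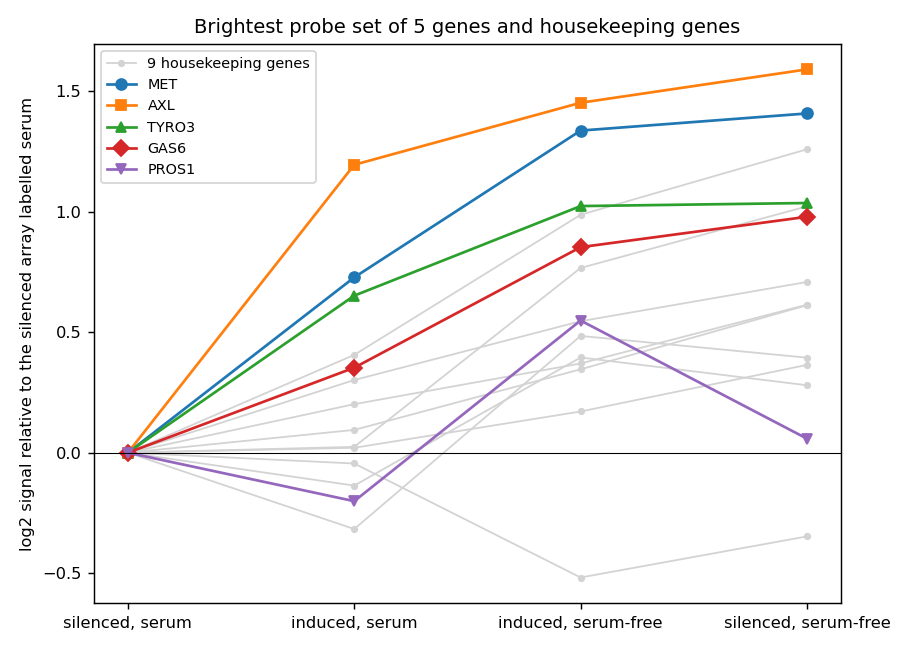
Log2 signal relative to the silenced array labelled serum, for the brightest probe set of MET, AXL, TYRO3, GAS6 and PROS1 and for 9 housekeeping genes (grey, signals set to at least 10.9); lines join the 4 arrays and are no time course. AXL was 1.19 and MET 0.73 above 0 on the induced array labelled serum, where the housekeeping genes had a median of 0.02.

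The first comparison asked what DACH1 induction did in cells labelled serum. AXL was 2.29-fold higher with DACH1 induced by its brightest probe set and 2.19-fold by the other. MET was 1.66-fold higher by its brightest probe set, and 1.53-fold, 1.27-fold and 1.13-fold by the others. TYRO3 was 1.57-fold and 1.21-fold higher, and GAS6 1.28-fold and 1.18-fold. PROS1 was 1.15-fold lower. AXL was the only 1 of 5 measured genes past 2-fold, where 2.91% of 12190 genes were at least 2-fold higher. By probe sets, 2 of 11 were, both of AXL, against 2.89% of 23634. Among the 7349 genes with either array at 100 or more, 2.25% were. A difference at least as high as that of AXL was seen in 1.529% of the 12103 genes of the fit, and at least as high as that of MET in 5.635%. The median over all genes compared was 0.01 on the log2 scale, and that of the 10 probe sets of MET, AXL, TYRO3 and GAS6 was 0.48. The spread among the MET probe sets, from 0.18 to 0.73, means that the size of its difference depends on the probe set; their places on the transcript were not analysed here.

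In the arrays labelled serum-free the same comparison gave small differences the other way. MET was 1.05-fold lower with DACH1 induced by its brightest probe set and 1.14-fold to 1.24-fold by the others. AXL was 1.10-fold and 1.09-fold lower, GAS6 1.09-fold and 1.34-fold, and TYRO3 1.01-fold and 1.204-fold. None of the 5 genes passed 2-fold, where 3.74% of 12659 genes did in either direction. The 9 housekeeping genes had a median log2 difference of -0.19 in this pair, as large as the -0.16 of the 10 probe sets. With quantile normalization the housekeeping median was 0.00, and all 10 probe sets, of MET, AXL, GAS6 and TYRO3, were below 0. Before that normalization, 49.5% of 12659 genes were above 0 in this pair. The share after it was not counted, and the part of array scaling was not tested. Of the 5 genes PROS1 alone was higher, by 1.41-fold.

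**Figure D3:**
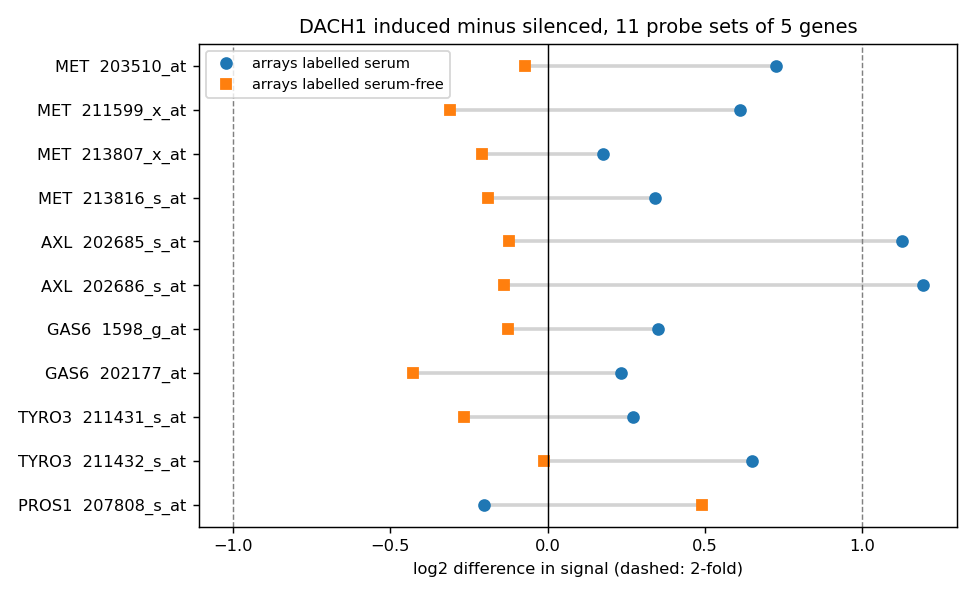
Log2 difference, DACH1 induced minus silenced, for the 11 measured probe sets in the arrays labelled serum (circles) and labelled serum-free (squares); each point is 1 pair of arrays, and dashed lines mark 2-fold. Both AXL probe sets lie beyond 2-fold labelled serum (1.13 and 1.19), and all points of MET, AXL, GAS6 and TYRO3 labelled serum-free lie below 0.

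The log2 difference between the DACH1 differences of the media, labelled serum-free minus labelled serum, was -1.33 for AXL, -0.80 for MET, -0.66 for TYRO3, -0.48 for GAS6 and 0.69 for PROS1. A value at least as low as that of AXL was seen in 2.338% of 12103 genes, and at least as low as that of MET in 7.312%. No array was left to test these values. Averaged over both media in the limma fit with DACH1 state and medium as terms, AXL was 0.53 higher with DACH1 induced (SE 0.38, adjusted p 0.931) and MET 0.33 (SE 0.27, adjusted p 0.931), and 0 of 5 members passed. Over all 12103 genes limma likewise called 0 (0.0%) at the adjusted threshold of 0.05, with 585 genes (4.83%) under 0.05 before adjustment. A gene leaves 1 residual degree of freedom in this fit, and its own error is the dependence of the DACH1 difference on the medium. The SE and p-values printed use that error after limma (eBayes) draws it toward a value shared by all genes. By construction, a gene that differs in 1 medium only has a larger error than a gene that differs alike in both.

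The bases before the annotated starts of MET and AXL, the receptors with the largest DACH1 differences, are shown together with those of HGF, which was near background. They are the 250 bases before each start, 5′ to 3′, from RefSeq on GRCh38.p14, which held all 7 genes in 9 windows. Capitals mark the GC box bound by SP1 (GGGCGG) or the TEAD motif (GGAATG), searched on both strands; the AP-1 motif (TGANTCA) was searched too.
MET, chr7:116671946-116672195, plus strand: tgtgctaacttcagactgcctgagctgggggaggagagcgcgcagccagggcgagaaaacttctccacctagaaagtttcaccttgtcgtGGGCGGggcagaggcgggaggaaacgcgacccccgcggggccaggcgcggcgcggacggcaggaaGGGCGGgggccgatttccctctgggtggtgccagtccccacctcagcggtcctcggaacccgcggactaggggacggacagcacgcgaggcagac
AXL, first start, chr19:41218973-41219222, plus strand: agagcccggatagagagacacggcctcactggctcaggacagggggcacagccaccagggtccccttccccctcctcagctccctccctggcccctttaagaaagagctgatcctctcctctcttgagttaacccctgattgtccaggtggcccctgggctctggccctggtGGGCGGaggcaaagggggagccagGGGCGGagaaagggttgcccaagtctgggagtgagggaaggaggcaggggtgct
AXL, second start, chr19:41226505-41226754, plus strand: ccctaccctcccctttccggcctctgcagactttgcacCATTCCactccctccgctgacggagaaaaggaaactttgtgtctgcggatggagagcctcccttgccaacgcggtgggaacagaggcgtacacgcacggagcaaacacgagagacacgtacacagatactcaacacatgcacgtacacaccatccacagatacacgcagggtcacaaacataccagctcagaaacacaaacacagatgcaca
HGF, chr7:81770048-81770297, minus strand: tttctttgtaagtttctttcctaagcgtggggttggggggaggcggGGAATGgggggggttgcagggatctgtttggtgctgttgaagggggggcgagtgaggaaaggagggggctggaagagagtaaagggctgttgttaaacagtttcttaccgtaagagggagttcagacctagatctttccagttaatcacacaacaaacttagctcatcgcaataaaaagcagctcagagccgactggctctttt

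The MET window held 2 GC boxes, 160 and 95 bases before the start, and the first AXL window held 2, at 78 and 54 bases. The second AXL window held none and 1 TEAD motif, at 212 bases, and the HGF window held no GC box and 1 TEAD motif, at 204 bases. None of these 4 windows held the AP-1 motif. Of the windows not shown, that of MERTK, also near background, held 4 GC boxes, the most of the 9, with a G and C content of 78.8%. GAS6 held 3 GC boxes, PROS1 2, the first TYRO3 window 3 and 1 AP-1 motif, and the second TYRO3 window none of the 3 motifs. Of 35116 RefSeq windows of the same length, 42.6% held a GC box, 11.9% the TEAD motif and 6.57% the AP-1 motif. The G and C content was 68.4% for MET, 64.4% and 54.4% for AXL and 50% for HGF, against a median of 58%. These matches are letters in a window and not measured sites.

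The second question was how the medium changed expression of these genes. In DACH1-silenced cells MET was 2.65-fold higher in the array labelled serum-free by its brightest probe set, and 2.83-fold to 3.30-fold by the others. AXL was 3.01-fold and 4.80-fold higher, TYRO3 2.05-fold and 1.79-fold, and GAS6 1.97-fold and 2.89-fold. PROS1 was 1.04-fold higher. By the brightest probe sets 3 of 5 genes (MET, AXL and TYRO3) passed 2-fold, where 15.3% of 12906 genes were at least 2-fold higher. By probe sets 8 of 11 did, against 15.5% of 25183.

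In DACH1-induced cells the differences were smaller for all but PROS1. MET was 1.53-fold higher by its brightest probe set, and 1.58-fold, 2.53-fold and 1.96-fold by the others. AXL was 1.195-fold and 2.02-fold higher, GAS6 1.41-fold and 1.83-fold, and TYRO3 1.29-fold and 1.23-fold. PROS1 was 1.68-fold higher. None of the 5 genes passed 2-fold by its brightest probe set, where 14.0% of 12371 genes were at least 2-fold higher, and 2 of 11 probe sets did, against 14.4% of 24246. The pairs of the medium comparison and of the DACH1 comparison are made from the same 4 arrays, so these sizes are not separate evidence.

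Housekeeping genes shared part of this direction. Their median log2 difference was 0.61 with DACH1 silenced and 0.25 with it induced, with 8 of 9 above 0 in each, and 0.30 and 0.16 with quantile normalization. The median of the 10 probe sets of MET, AXL, TYRO3 and GAS6 was 1.52 in silenced and 0.64 in induced cells, and over all genes compared it was 0.06 and 0.01. The part of this shift in the members' differences was not tested.

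**Figure D4:**
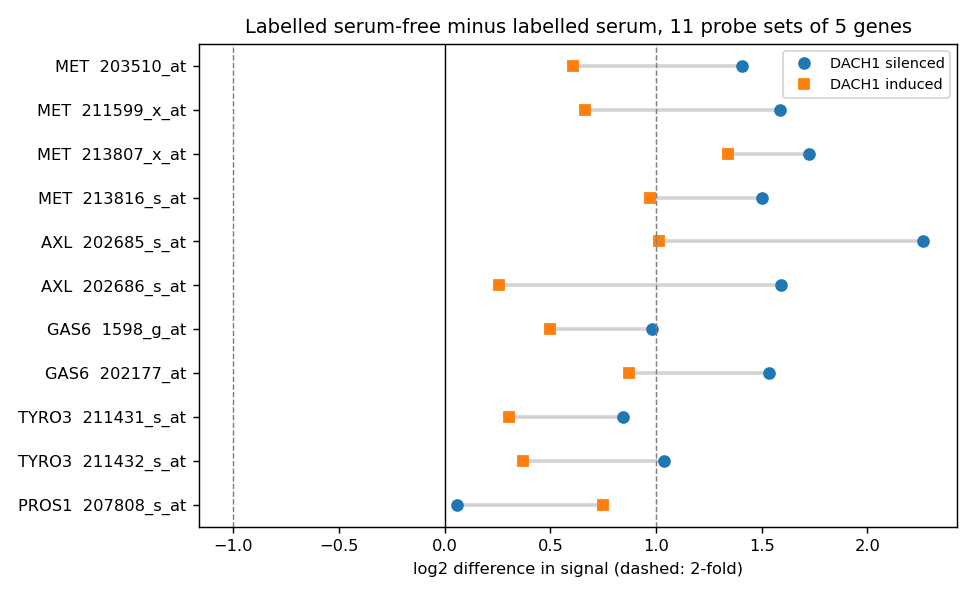
Log2 difference, labelled serum-free minus labelled serum, for the 11 measured probe sets in DACH1-silenced (circles) and DACH1-induced cells (squares); each point is 1 pair of arrays, and dashed lines mark 2-fold. For every probe set of MET, AXL, GAS6 and TYRO3 the circle lies to the right of the square, and for PROS1 to the left.

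Over both DACH1 states, limma gave MET a log2 difference of 1.01 (SE 0.27, adjusted p 0.0616), a 2.01-fold higher signal that missed the threshold. GAS6 followed with 0.74 (SE 0.21, adjusted p 0.0729), TYRO3 with 0.70 (SE 0.24, adjusted p 0.103), AXL with 0.92 (SE 0.38, adjusted p 0.143) and PROS1 with 0.40 (SE 0.25, adjusted p 0.278). So 0 of 5 members passed, where the fit called 15.4% of 12103 genes higher and 12.7% lower. All 5 were higher in the arrays labelled serum-free in both DACH1 states, PROS1 by only 1.04-fold in silenced cells. Of all genes compared, 52.7% were higher with DACH1 silenced and 50.5% with it induced. The share higher in both was not counted. Before adjustment 3 members (MET, GAS6 and TYRO3) lay under 0.05 in limma, as did 45.7% of all genes. The call depends on the probe set. With every probe set fitted as its own row, 5 of 11 rose: 213807_x_at, 213816_s_at and 211599_x_at of MET (adjusted p 0.0167, 0.0264 and 0.0495 in limma), 202685_s_at of AXL (1.64, SE 0.35, adjusted p 0.0333) and 202177_at of GAS6 (1.201, SE 0.25, adjusted p 0.0317). In that fit 16.3% of 23629 probe sets rose. The error behind these p-values comes from the dependence of the medium difference on DACH1 state in single arrays. In limma (eBayes) it is drawn toward a value shared by all rows of the fit. Without repeated cultures, the spread between cultures could not be measured apart from that dependence.

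Of the wider HGF and MET pathway, 32 of 36 listed genes were named here and 26 entered the fit. Between media 2 rose and 4 fell, with a median of -0.28 against 0.02 over all genes, of which 15.4% rose and 12.7% fell. PLXNB3, a plexin of the family that pairs with MET, rose (17.1, 15.9, 155.4 and 136.3; adjusted p 0.0167 in limma); no fold is given, since its signals labelled serum lay under the median of all signals. PLAT, the tissue plasminogen activator gene, rose 3.99-fold (51.5, 50.5, 214.7 and 192.8). CBL, the ubiquitin ligase that marks activated MET for degradation, fell 2.32-fold (354.8, 337.5, 165.7 and 134.5; adjusted p 0.0265 in limma). GAB2, a docking adaptor related to GAB1, fell 2.23-fold. None of the 26 passed for DACH1. In the arrays labelled serum 1 was at least 2-fold higher and 2 lower with DACH1 induced, near the 2.91% and 4.77% of all genes. MST1, which encodes the ligand of the MET relative RON, was 2.22-fold lower labelled serum (45.3 and 20.4) and at least 3.07-fold lower labelled serum-free (33.5 and 9.0). It has close copies in the genome that its probe set, of the _x_at kind, may share. None of the 26 had the order of arrays seen for MET, against 10.8% of all genes.

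Of the TAM pathway, 27 of 28 listed genes were named and 23 entered the fit, of which 4 rose and 2 fell between media, with a median of -0.05, where 15.4% of all genes rose and 12.7% fell. GGCX, the carboxylase that modifies GAS6 and PROS1, rose 4.76-fold in the arrays labelled serum-free (69.1, 44.3, 272.6 and 254.7; log2 difference 2.25, SE 0.22, adjusted p 0.0188 in limma). VKORC1, which recycles the vitamin K that GGCX uses, rose 2.49-fold (980.7, 1193, 2822 and 2569; adjusted p 0.0271 in limma). VKORC1L1, its paralogue, read 216.1, 181.9, 176.7 and 165.1 and did not pass (adjusted p 0.413 in limma). TNS2, a tensin reported to bind AXL, rose 3.39-fold (29.5, 22.7, 85.4 and 90.0). SOCS3, a cytokine feedback inhibitor that TAM signalling can induce in immune cells, fell 7.49-fold (418.6, 248.3, 37.0 and 50.1; adjusted p 0.0203 in limma). For DACH1, 0 of the 23 passed, with 1 at least 2-fold higher and 2 lower labelled serum, where 2.91% and 4.77% of all genes were. The order of arrays seen for AXL was found in 4 of the 23, against 10.8% of all genes.

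Of 19 genes for transcription factors tied to MET or AXL, 1 rose and 2 fell between media, with a median of -0.28, beside the same 15.4% and 12.7%. FOS, a subunit of AP-1, fell (adjusted p 0.0167 in limma), by at least 7.76-fold in silenced and 10.1-fold in induced cells: it read 84.6 and 109.5 labelled serum and 3.3 and 6.5, under the floor, labelled serum-free. ETS1 fell 2.18-fold (720.6, 1027, 384.8 and 406.1), and FOSL2 rose 1.92-fold (480.7, 404.0, 812.7 and 883.2; adjusted p 0.0412 in limma). None passed for DACH1, and 0 were at least 2-fold higher and 2 lower labelled serum, beside 2.91% and 4.77% of all genes.

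**Figure D5:**
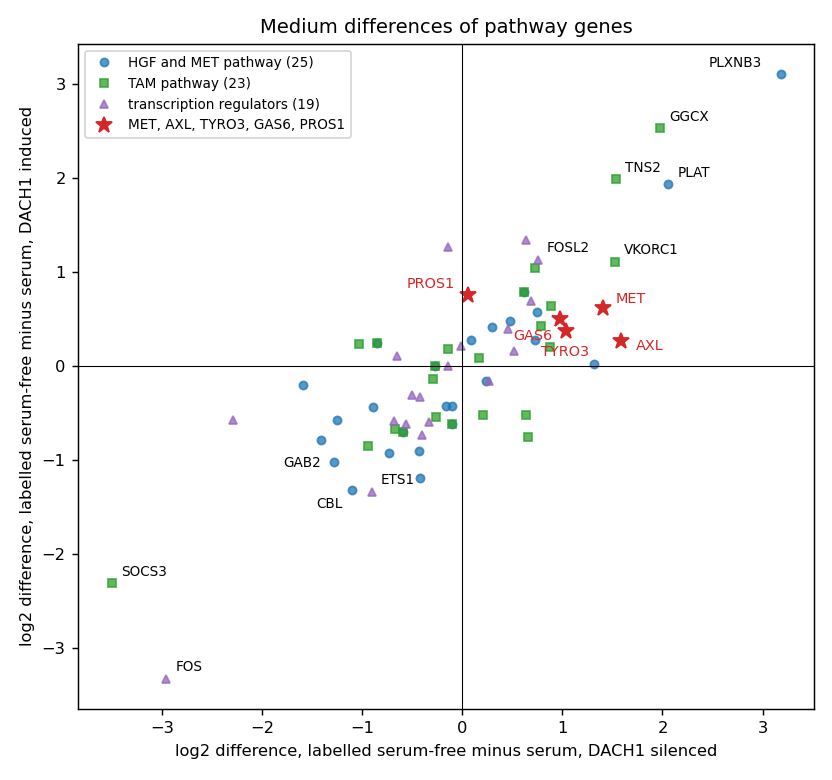
Log2 difference between media (labelled serum-free minus labelled serum) in DACH1-silenced (x axis) and DACH1-induced cells (y axis), 1 point per gene of the 3 pathway lists that both pairs could compare and a star for each of the 5 measured members. GGCX, VKORC1, PLXNB3 and PLAT lie to the upper right, SOCS3 and FOS to the lower left, and the stars of MET, AXL, TYRO3 and GAS6 below the diagonal.

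The genes whose 4 centred log2 signals lay nearest to those of each member were read as a description over 4 arrays. Nearest to MET were ORMDL2 (root mean square distance 0.02 log2 units), the epidermal growth factor receptor gene EGFR (0.03) and KATNAL1 (0.03). EGFR read 481.1, 766.8, 1281 and 1178. Nearest to AXL were B3GLCT (0.01), ANXA2P2 (0.05) and VSIG10L (0.06). ANXA2P2 is an annexin A2 pseudogene, and its signals (1755, 3798, 5412 and 4885) cannot be told from those of ANXA2 here. Nearest to TYRO3 were ZFAND2B (0.02), STX2 (0.03) and PFN2 (0.03). Within 0.1 log2 units lay 58 genes for MET, 13 for AXL and 90 for TYRO3. Among the members, MET and TYRO3 were 0.16 apart and MET and AXL 0.17, with 284 genes nearer to MET than AXL was. PROS1 was 0.49 from MET and 0.60 from AXL.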

How the data were processed

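Per the submitters' processing notes, the authors made the deposited values with MAS5, as a linear signal intensity per probe set. Its settings are not given in the labels read here. Labelled cRNA came from 6 µg of total RNA. Without 2% of probe sets at each end, array means lie between 99.63 and 99.65, and 0 columns were left unused.

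Of 54613 probe sets, 41091 had 1 gene in GEO's platform annotation (symbols updated through RefSeq), 1801 several and 11721 none listed. The probe set brightest on average (mean log2) stood for its gene. Signals under the 40th percentile (10.9) were set to it before log2. A pair was compared if 1 array reached the median of all signals (17.2), and a gene entered the fit if 2 of 4 did. The fit was limma 3.58.1 in R 4.3.3 (lmFit, eBayes, Benjamini-Hochberg over all genes), on the terms DACH1 state and medium. It was also run on simulated data to which changes between media only were added. No dependence of the DACH1 difference on the medium was added, so that run does not test the error used here. Other steps used pandas 2.3.3 and numpy 2.4.6 in Python 3.11.15, and figures matplotlib 3.10.9.

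The members and the lists were chosen with earlier results of these data known. Named pathway genes were up to 4 per list and factor that limma called, or that differed 2-fold alike in both pairs. For pattern likeness, the 3 nearest genes of each member with a range of 1 log2 unit or more were named. Alternatives tried: no filter, no floor, quantile normalization, the floor as a pseudocount, all arrays at the median, a floor of 50 with an array at 100, the mean of probe sets, no _x_at or _s_at probe sets, probe sets as rows, a trend in the prior and each array left out.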

Additional observations from a re-analysis of the deposited data

Results flagged for a closer look

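For 2 probe sets the DACH1 difference had opposite signs in the media with at least 1.2-fold in each, and the difference between media was not tested. MET probe set 211599_x_at was 1.53-fold higher with DACH1 induced labelled serum and 1.24-fold lower labelled serum-free, -0.92 apart on the log2 scale. TYRO3 probe set 211431_s_at was 1.21-fold higher and 1.204-fold lower, -0.54 apart. The brightest probe sets of both genes were nearer to 0 labelled serum-free, at -0.07 for MET and -0.01 for TYRO3.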

How the results depend on the processing

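No paired analysis was possible because each condition has 1 array and the labels number no replicates. For 2-fold differences, 1 member (AXL) labelled serum and 3 members in silenced cells passed. Without _x_at and _s_at probe sets, which leaves only MET and GAS6 measured, 0 and 1 passed. In silenced cells TYRO3 (1.04 on the log2 scale) was lost with the pseudocount (0.92, 2 members passing) and with the mean of probe sets (0.94), where GAS6 passed instead (1.26). The counts of 0 for the other pairs held under the alternatives run. For the medium term of limma, 0 members passed. With a pseudocount equal to the floor 1 did, with every array at the median 2, with a floor of 50 and an array at 100 or more 3, with the mean of all probe sets 2, without _x_at and _s_at probe sets 1, with every probe set its own row 3 and with a trend in the variance prior 1. MET is the gene that passed in each of these gene-level settings, at an adjusted p between 0.0246 and 0.0462 in limma. It did not pass with quantile normalization (0.0646), no floor (0.0868) or no filter (0.367), against 0.0616 as reported.

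With 1 array left out, the DACH1 log2 difference of both media is that of the pair left and has no test. It ranged from -0.071 to 0.73 for MET, -0.14 to 1.19 for AXL, -0.13 to 0.35 for GAS6, -0.013 to 0.65 for TYRO3 and -0.20 to 0.49 for PROS1, so each sign turned with the medium left. The medium difference ranged from 0.61 to 1.41 for MET, 0.26 to 1.59 for AXL, 0.50 to 0.98 for GAS6, 0.37 to 1.04 for TYRO3 and 0.06 to 0.75 for PROS1.

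Counts over all genes moved more. Labelled serum, 223 genes were higher and 356 lower with every array at the median and 165 and 258 with a floor of 50 together with an array at 100 or more, against 355 and 581. Labelled serum-free, 344 were lower and 129 higher, or 213 and 153 with quantile normalization, 597 and 210 with no floor, 220 and 74 with a pseudocount, 63 and 24 with every array at the median, 177 and 68 with the mean of probe sets, and 9 and 2 with that floor and minimum. The same floor and minimum together left 1155 genes higher labelled serum-free in silenced and 1075 in induced cells, against 1972 and 1732. For DACH1 in limma, 1 gene instead of 0 passed with every array at the median and with the trend. With no filter, limma called 0 genes between media, against 1862 and 1534, with no floor 1201 and 906, and with probe sets as rows 3863 and 2935 probe sets. Signals near background limit HGF and MERTK, for which no direction can be given.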
